A study of Mus musculus with 12 samples.

Results

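Interferon-stimulated genes were followed as a set of 35 named genes in C2C12 myotubes exposed to hydrogen peroxide (H2O2), to ginsenoside Rc (gRc), to both or to neither. C2C12 cells are an established line of mouse muscle precursors, and in low serum they fuse into long multinucleated myotubes. Ginsenoside Rc is a saponin of ginseng. The members were chosen by name from what is known of the interferon response, with earlier results of these data known. All 35 matched 1 gene among the 48795 genes listed. Of these, 29 had enough counts to be measured and 6 were too low. Those too low are Oasl1, Oas1a, Rsad2, Ifi44, Cmpk2 and Mx1.

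Poly(A) RNA was sequenced from 12 libraries, 3 per group. All groups came from the same cell line, differentiated for 5 days in horse serum, and gRc was dissolved in DMSO, which is also the vehicle. The vehicle group had DMSO for 24 h and the gRc group 10 µM gRc for 24 h. The H2O2 group had vehicle for 18 h and then 0.25 mM H2O2 for 6 h. The gRc + H2O2 group had 10 µM gRc and then 0.25 mM H2O2 for 6 h. The labels of the last group disagree on the pretreatment, which a description gives as 18 h and a tag as 24 h. The labels call the cells myoblasts, but the muscle genes Myh3, Acta1, Ckm, Myog and Mymk were all abundant, with Myh3 at no fewer than 69604 counts in any library. Nothing says if replicates were grown apart, so a p-value here sets a difference against the scatter of 3 libraries that may be technical.

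Interferons are secreted proteins that cells release when they sense viral RNA or DNA. Type I interferons bind the receptor made of IFNAR1 and IFNAR2, and the kinases JAK1 and TYK2 then signal to STAT2. With IRF9 it is part of the complex ISGF3, which binds the interferon-stimulated response element (ISRE) in the promoters of many of the genes described here. Interferon gamma acts on another element, the gamma-activated site (GAS). The products of the induced genes bind foreign RNA, modify proteins with the ubiquitin relative ISG15, raise the sensors of viral RNA and, through USP18, restrain the receptor.

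The ISRE was searched as 2 GAAA half-sites spaced 2 bases apart, on either strand, in the RefSeq promoters (GRCm38.p6, 250 bases before to 50 bases after the start site). Of the 26 members in that table, 14 held a match, against 3.99% of the 27025 genes with a promoter. Before the start site it was 12 of 26 members and 3.46% of genes. The GAS, searched as TTC and GAA spaced 3 bases apart, was found in 6 of 26 members and 9.55% of genes. The kB motif of the NF-kB factors, searched as GGG and TTCC spaced 3 bases apart, was found in 4 of 26 and 6.31%. A match is a run of letters in this window and not a bound site. Usp18, Dhx58, Ifi27, Parp9, Parp14, Rtp4, Mx1, Mx2 and Zbp1 are the members without an entry.

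The stretches around the ISRE matches of 6 members are shown because they are the measured members with a match whose H2O2 libraries all lay above the vehicle libraries, each from 5′ to 3′ on the strand of its gene with the matched bases in capitals. A match on the opposite strand reads TTTC in place of GAAA. The Isg15 stretch lies at chr4:156200863-156200908 on the minus strand, and the others lie on the plus strand at chr19:34640773-34640825 (Ifit1), chr19:34583361-34583428 (Ifit3), chr19:34607757-34607824 (Ifit3b), chr3:142559987-142560026 (Gbp3) and chr11:58199510-58199543 (Igtp) of GRCm38.p6. All lie before the RefSeq start site of their gene.
Isg15: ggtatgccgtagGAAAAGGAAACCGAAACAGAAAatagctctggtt
Ifit1: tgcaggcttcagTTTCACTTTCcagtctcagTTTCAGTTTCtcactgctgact
Ifit3: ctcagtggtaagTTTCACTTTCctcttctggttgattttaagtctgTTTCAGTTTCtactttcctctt
Ifit3b: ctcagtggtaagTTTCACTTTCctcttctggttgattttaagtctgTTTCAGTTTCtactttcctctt
Gbp3: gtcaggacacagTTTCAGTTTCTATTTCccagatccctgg
Igtp: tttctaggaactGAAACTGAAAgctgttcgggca
The Isg15 stretch holds 3 overlapping matches, those of Ifit1, Ifit3, Ifit3b and Gbp3 hold 2 each and that of Igtp holds 1. The stretches of Ifit3 and Ifit3b are the same in all 68 bases. The Igtp stretch also holds a GAS match, at -45 to -37 from the start site, which is not marked. Ifit2 and Irf1 have no ISRE match in this window. A kB match of Ifit2 (-247 to -238) overlaps its GAS match and is not marked as such. The GAS matches of Ifit2 and Irf1 lie within chr19:34550444-34550473 and chr11:53769912-53769944 on the plus strand.
Ifit2: catgggagcTTCCTGGAAgaatggataaaa
Irf1: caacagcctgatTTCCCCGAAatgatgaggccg

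Total counts ran from 19274762 to 31409066 per library, and no library repeated another. Libraries of a group were not alike. The gap in level between the 10% of genes poorest in GC and the 10% richest in it stood at -0.90 (log2) in vehicle replicate 1, at 0.40 in vehicle replicate 3 and at 0.52 in gRc replicate 3. The peroxide-induced genes Hmox1, which encodes heme oxygenase, and Atf3, a stress-induced transcription factor, rose with H2O2 in vehicle-treated and in gRc-treated cells. Levels below are CPM, counts scaled to the library size and normalized by edgeR's trimmed mean of M-values, in the order of replicates 1, 2 and 3. Fold changes are on the log2 scale, and adjusted p is from edgeR's quasi-likelihood test with Benjamini-Hochberg adjustment over the 14838 genes tested.

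H2O2 against vehicle asked which of these genes respond to the oxidant. Among the 29 measured members 10 rose and 1 fell, and 18 did not pass. Those that rose are Irf7, Irf9, Isg15, Usp18, Trim25, Ifit1, Ifit3b, Oasl2, Mx2 and Igtp, with log2 fold changes from 0.66 (Trim25) to 3.15 (Ifit1), and the gene that fell is Ifit2. Over all genes tested, 7.81% rose and 7.84% fell. The median of the 29 was 0.47, with 22 above 0, beside -0.06 and 6798 of 14838 for all genes. Usp18 and Ifit3b passed the filter on low counts through the H2O2 libraries alone, and without them 8 of 27 rose with a median of 0.35. In 15 of the 29 the H2O2 libraries lay above all vehicle libraries (15.9% of all genes) and in 2, Ifit2 and Zbp1, below them (15.2%). In bulk RNA, fewer cells of a kind and less RNA per cell cannot be told apart.

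**Figure D1:**
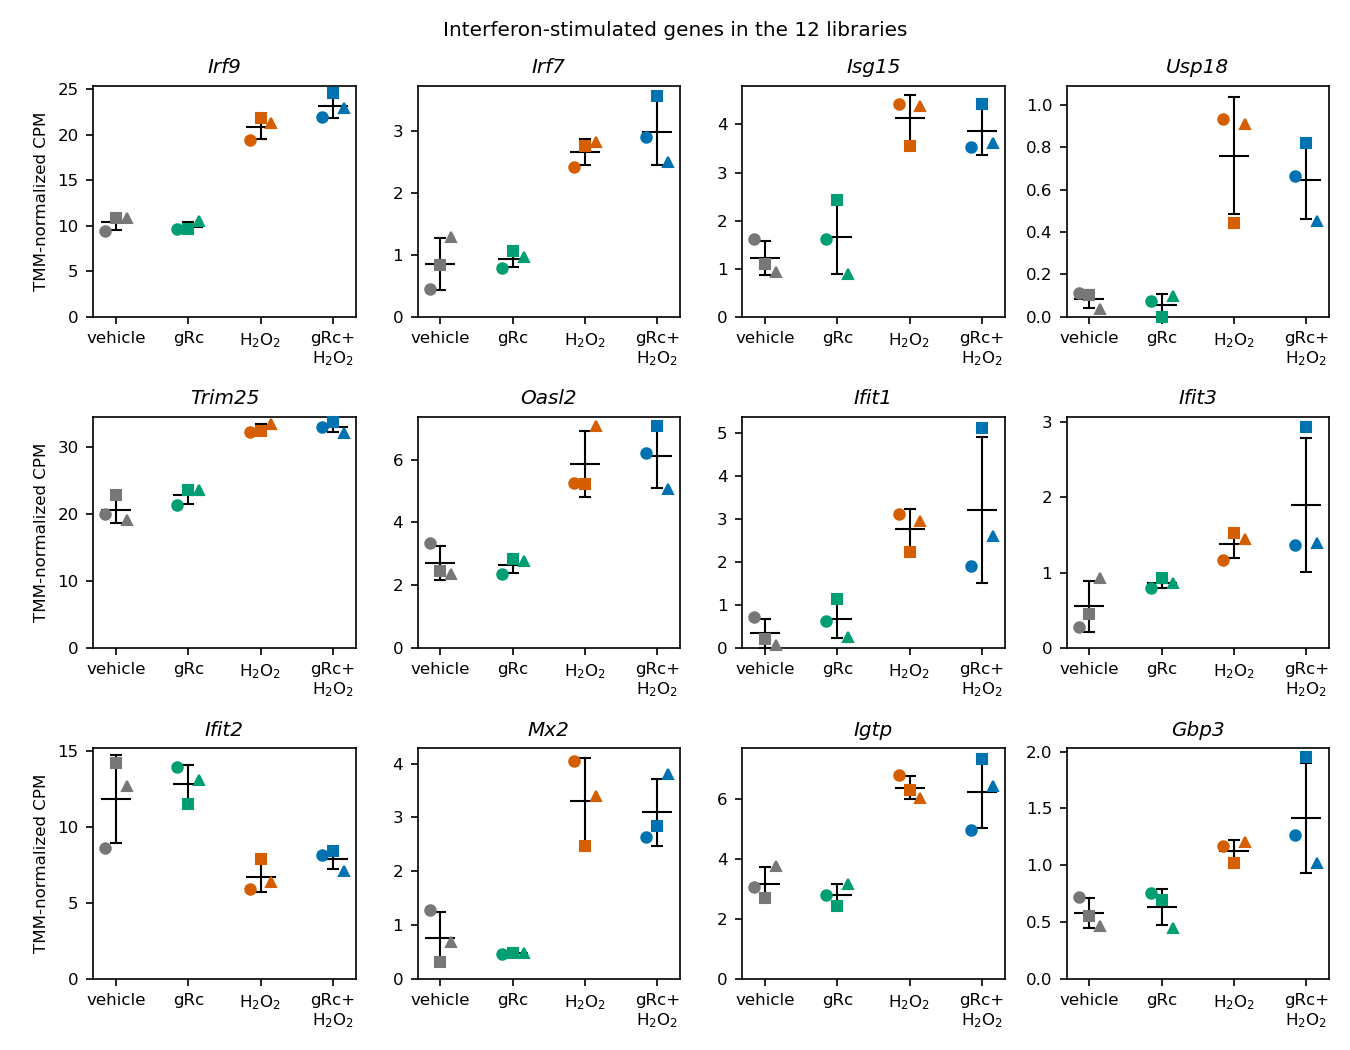
Level of 12 members (TMM-normalized CPM, linear axis from 0) in vehicle, gRc, H2O2 and gRc + H2O2. Circles, squares and triangles are replicates 1, 2 and 3, and bars are the mean and SD of 3 libraries. The panels show Ifit2 and the 11 members that were higher without overlap in both comparisons of H2O2, so the separation comes with this choice. In every panel but that of Ifit2 each library with H2O2 lies above each library without it. In that of Ifit2 each lies below, and the other measured members are not shown.

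Among the transcription factors, Irf9 and Irf7 rose and Stat2 and Irf1 did not pass. Irf9, the DNA-binding subunit of ISGF3, stood at 9.43, 10.9 and 10.9 CPM with vehicle and at 19.4, 21.8 and 21.3 CPM with H2O2. In edgeR the log2 change was 1.00 with SE 0.13 (adjusted p = 0.000623), and the groups did not overlap. Its exons overlap those of Rnf31 on the same strand, which rose by 0.47 (adjusted p = 0.0262, edgeR). Irf7, the factor that amplifies interferon production, stood at 0.444, 0.830 and 1.28 CPM with vehicle and at 2.42, 2.75 and 2.81 CPM with H2O2. Its log2 fold change was 1.61 with SE 0.33 (adjusted p = 0.00775) from edgeR, and the lowest H2O2 library lay above the highest vehicle library. Phrf1, which overlaps Irf7 on the opposite strand, had a log2 fold change of 0.37 with SE 0.19 (adjusted p = 0.213). Stat2, the partner of IRF9 in ISGF3, stood at 39.7, 40.9 and 32.9 CPM with vehicle and at 34.2, 37.3 and 43.9 CPM with H2O2, and the 2 groups overlapped. Its log2 fold change was 0.02, with a 95% interval of -0.32 to 0.37. Irf1, which responds to interferon gamma, stood at 43.9, 29.9 and 25.4 and at 31.9, 25.1 and 32.9 CPM, with an interval of -0.59 to 0.31.

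All 3 members of the ISG15 system rose, of which Usp18 passed the filter on low counts through the H2O2 libraries alone. Isg15, whose protein is joined to other proteins like ubiquitin, stood at 1.61, 1.11 and 0.927 CPM in the vehicle libraries and at 4.43, 3.56 and 4.39 CPM in the H2O2 libraries. The change was 1.77 with SE 0.34 (adjusted p = 0.00612) from edgeR, without overlap. Usp18, the protease that removes ISG15 and restrains the interferon receptor, stood at 0.111, 0.104 and 0.0357 CPM with vehicle, which are 2, 3 and 1 counts. With H2O2 it stood at 0.932, 0.441 and 0.910 CPM, or 20, 13 and 22 counts, and the highest vehicle library lay below the lowest of these. Its log2 change in edgeR was 3.15 with SE 0.62 (adjusted p = 0.00688), and its size rests on the few vehicle counts. Trim25, a ubiquitin ligase that also activates the RNA sensor RIG-I, stood at 19.9, 22.9 and 19.1 CPM and at 32.2, 32.4 and 33.4 CPM. It rose by 0.66 (SE 0.12, adjusted p = 0.00392, edgeR), the smallest rise among the 10 members that passed.

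The IFIT genes, which encode proteins that bind viral RNA, moved in both directions. They lie side by side on chromosome 19 of GRCm38 in the order Ifit2, Ifit3, Ifit3b and Ifit1, with gaps of 7111, 19238 and 27469 bases. Ifit1 (34640871 to 34650009) stood at 0.721, 0.207 and 0.0713 CPM with vehicle and at 3.12, 2.24 and 2.94 CPM with H2O2. Its log2 fold change was 3.15 with SE 0.72 (adjusted p = 0.0136) from edgeR, and the groups did not overlap. Without vehicle replicate 2 the adjusted p was 0.0531, and the log2 fold change was 4.25 without vehicle replicate 1 and 2.64 without replicate 3. Ifit3b stood at 0.111, 0.138 and 0.214 CPM and at 0.513, 0.611 and 0.662 CPM, and edgeR gave a log2 fold change of 1.89 with SE 0.52 (adjusted p = 0.0329). Ifit3, its near-identical neighbour, stood at 0.277, 0.450 and 0.927 CPM and at 1.17, 1.53 and 1.45 CPM, also without overlap, and its log2 fold change of 1.29 with SE 0.43 (adjusted p = 0.0683) did not pass. It passed with DESeq2 (adjusted p = 0.0345), under both GC corrections and without vehicle replicate 3 (adjusted p = 0.0202, edgeR). Reads shared by Ifit3 and Ifit3b were divided between them in the counting, so the split between the pair is uncertain. Ifit3b missed the threshold in each of the 6 fits that left out 1 vehicle or H2O2 library, with adjusted p up to 0.0970.

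Ifit2 went the other way. It stood at 8.60, 14.2 and 12.7 CPM with vehicle, the highest CPM among the IFIT genes there, and at 5.92, 7.87 and 6.37 CPM with H2O2. EdgeR gave a log2 fold change of -0.82 with SE 0.20 (adjusted p = 0.0199), and all 3 H2O2 libraries lay below the lowest vehicle library. Without vehicle replicate 2, H2O2 replicate 1 or H2O2 replicate 3 it did not pass, with adjusted p up to 0.0703. It is the one IFIT gene without an ISRE match in the window shown, and whether this bears on its fall was not tested.

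Among the other direct antiviral effectors, Oasl2 and Mx2 rose. Oasl2, a relative of the RNA-activated oligoadenylate synthetases, stood at 3.33, 2.46 and 2.35 CPM with vehicle and at 5.27, 5.22 and 7.07 CPM with H2O2. In edgeR the log2 change was 1.11 with SE 0.22 (adjusted p = 0.00661), without overlap. Mx2, a dynamin-like GTPase gene annotated as a polymorphic pseudogene, stood at 1.28, 0.311 and 0.678 CPM and at 4.06, 2.48 and 3.39 CPM, which is a log2 change of 2.17 with SE 0.41 (adjusted p = 0.00582). Vehicle replicate 1 was the highest of the vehicle libraries and still lay below all H2O2 libraries. Bst2, whose protein tetherin holds budding virus at the cell surface, stood at 4.71, 2.97 and 5.85 CPM and at 5.69, 3.70 and 3.68 CPM, and the groups overlapped.

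The GTPases that act on the membranes around intracellular pathogens, many of them known for induction by interferon gamma, did not move together. Igtp stood at 3.05, 2.7 and 3.78 CPM with vehicle and at 6.81, 6.31 and 6.04 CPM with H2O2, with a log2 fold change of 1.01 with SE 0.20 (adjusted p = 0.00815). The groups did not overlap. Exons of Igtp overlap those of Irgm2 on the same strand, and Irgm2, which is no member, also rose by 2.10 (SE 0.46, adjusted p = 0.0114, edgeR). Gbp3 stood at 0.721, 0.553 and 0.464 CPM and at 1.17, 1.02 and 1.2 CPM, again without overlap, and its log2 fold change of 0.97 with SE 0.33 (adjusted p = 0.0703) did not pass. Gbp2 stood at 1.5, 2.49 and 2.03 CPM and at 1.31, 1.63 and 1.16 CPM, and edgeR gave a log2 fold change of -0.56 with SE 0.26 (adjusted p = 0.182). Irgm1 ran from 6.54 to 30.6 CPM within the vehicle libraries, lowest in replicate 1 and highest in replicate 3, and the 3 H2O2 libraries fell inside that range.

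None of the 4 measured sensors passed. Ddx58, which encodes RIG-I, stood at 10.4, 12.1 and 13.3 CPM with vehicle and at 14, 13.9 and 12.2 CPM with H2O2, a log2 fold change of 0.16 with an interval of -0.21 to 0.54. Ifih1, which encodes the long-RNA sensor MDA5, had a log2 fold change of 0.35 with SE 0.32 (adjusted p = 0.502). Dhx58, the regulator of both, stood at 0.166, 0.588 and 0.464 CPM and at 0.932, 0.848 and 0.993 CPM without overlap, and its log2 fold change of 1.13 with SE 0.46 (adjusted p = 0.123) did not pass. It shares exons with Dhx58os on the opposite strand, which fell by 1.34 (adjusted p = 0.0265, edgeR), and whether the counting used strand is not given. Zbp1, a sensor of left-handed nucleic acid, stood at 0.832, 0.934 and 1.57 CPM and at 0.466, 0.611 and 0.579 CPM, lower in all H2O2 libraries, with a log2 fold change of -1.01 with SE 0.56 (adjusted p = 0.258).

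The remaining members did not pass either. Parp14, an ADP-ribosyltransferase, stood at 3.49, 3.73 and 3.00 CPM and at 4.52, 5.60 and 4.05 CPM, higher in every H2O2 library, with a log2 fold change of 0.47 with SE 0.22 (adjusted p = 0.173). Parp9 and the ubiquitin ligase gene Dtx3l, whose products act as a pair, are neighbours whose ends overlap by 682 bases on opposite strands. Parp9 changed by -0.59 and Dtx3l by 0.09 on the log2 scale, with adjusted p of 0.199 and 0.829 from edgeR. Ifi27 and Ifi35 stood at 37.5 and 18.7 CPM on average with H2O2, beside 31.3 and 16.8 with vehicle, and their groups differed by 0.26 and 0.15 (log2). Rtp4 and the cell death gene Xaf1 had log2 fold changes of 0.54 with SE 0.35 (adjusted p = 0.334) and 0.11 with SE 0.50 (adjusted p = 0.910). Xaf1 spread from 2.05 to 11.5 CPM over the vehicle libraries.

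**Figure D2:**
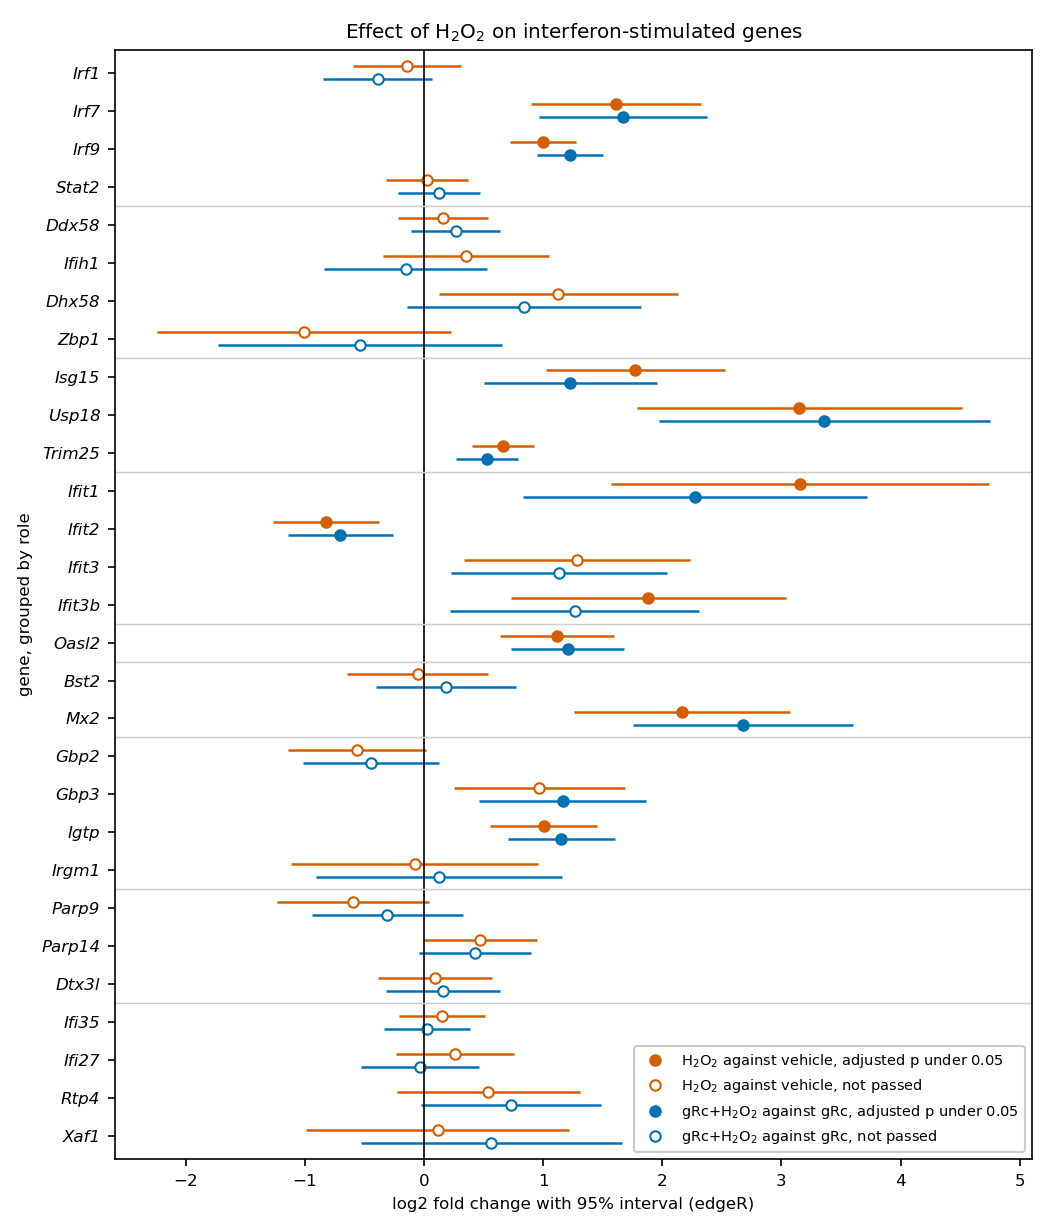
Log2 fold change with its 95% interval (horizontal axis, edgeR) of the 29 measured members, grouped by role, for H2O2 against vehicle (orange) and gRc + H2O2 against gRc (blue). Filled points have an adjusted p under 0.05. In each comparison 10 members lie to the right as filled points and Ifit2 alone to the left.

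Per length, in the deposited TPM, which RSEM scales by transcript length, the 3 members with the highest vehicle means were none of those that rose. Ifi27 had the highest vehicle mean, 91.2 ± 6.15 TPM (mean ± SD, n = 3), followed by Irf1 with 31.9 ± 10.2 TPM and Ifi35 with 22.4 ± 1.82 TPM. The libraries of Irf1 and Ifi35 overlapped, since Irf1 went down to 20.2 TPM in vehicle replicate 3. Isg15 went from 3.12 ± 0.651 to 10.3 ± 0.791 TPM, Trim25 from 9.24 ± 4.08 to 17.4 ± 1.55 TPM and Irf9 from 7.73 ± 1.36 to 17.1 ± 0.520 TPM. Ifit1 reached 1.56 ± 0.206 TPM and Usp18 0.693 ± 0.176 TPM with H2O2. The summed level of all 35 members was 244 to 252 CPM in the vehicle libraries and 280 to 295 CPM in the H2O2 libraries, a ratio of the means of 1.17. In TPM the same ratio was 1.24.

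gRc + H2O2 against gRc gives the response to the oxidant in gRc-treated cells and shares no library with the comparison above. Again 10 of the 29 members rose and 1 fell, beside 7.57% and 8.15% of all genes tested. The list that rose holds Gbp3 in place of Ifit3b, so 9 of the 29 members rose in both comparisons and 11 in either. Of the 14838 genes tested, 890 rose in both, and those that rose in either were not counted. The gene that fell was again Ifit2. The median of the 29 was 0.53 with 22 above 0, beside -0.04 for all genes. Without Usp18 and Ifit3b, 9 of 27 rose with a median of 0.43. The gRc + H2O2 libraries lay above all gRc libraries in 12 of the 29 (19.2% of all genes) and below them in 2, Ifit2 and Irf1 (19.5%). Higher without overlap in both comparisons were 11 members, and the share of all genes that did so was not counted.

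Irf9 stood at 9.60, 9.59 and 10.5 CPM with gRc and at 22.0, 24.6 and 23 CPM with gRc + H2O2, which is a log2 change of 1.23 with SE 0.13 (adjusted p = 0.000196). Irf7 stood at 0.791, 1.06 and 0.963 CPM and at 2.90, 3.57 and 2.49 CPM, with a log2 fold change of 1.67 with SE 0.32 (adjusted p = 0.00604). Both factors separated the groups completely, as they did without gRc. Isg15 stood at 1.62, 2.44 and 0.899 CPM and at 3.53, 4.42 and 3.62 CPM, with gRc replicate 2 the highest of the gRc libraries. Its log2 fold change was 1.23 with SE 0.33 (adjusted p = 0.0284) from edgeR, and it missed the threshold without gRc replicates 1 or 3 or any of the gRc + H2O2 replicates, with adjusted p up to 0.102. Usp18 stood at 0.0719, 0 and 0.0963 CPM with gRc, or 2, 0 and 3 counts, and at 0.667, 0.821 and 0.453 CPM, or 20, 26 and 12 counts, with gRc + H2O2. The change was 3.36 with SE 0.63 (adjusted p = 0.00537), against 5 counts in the 3 gRc libraries together. Trim25 stood at 21.2, 23.5 and 23.6 CPM and at 32.9, 33.6 and 32.1 CPM, and edgeR gave a log2 fold change of 0.53 with SE 0.12 (adjusted p = 0.0115). It did not pass without gRc replicate 1 or gRc + H2O2 replicate 2, where the higher adjusted p was 0.0537.

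Ifit1 stood at 0.611, 1.14 and 0.257 CPM with gRc and at 1.90, 5.11 and 2.60 CPM with gRc + H2O2. Replicate 2 was the highest library of each group, and the groups did not overlap. Its log2 change in edgeR was 2.27 with SE 0.66 (adjusted p = 0.0382), and the call was lost in 9 of the 12 fits that left out 1 library, all but those without vehicle replicates 1 or 3 or gRc replicate 2, with adjusted p up to 0.157. Without gRc replicate 2 the log2 fold change was 2.88, and without gRc + H2O2 replicate 2 it was 1.76. Ifit3 stood at 0.791, 0.934 and 0.867 CPM and at 1.37, 2.94 and 1.40 CPM, which is a log2 change of 1.14 with SE 0.41 (adjusted p = 0.0901), and passed without vehicle replicates 1 or 3 (the lower adjusted p was 0.0414). Ifit3b stood at 0.216, 0.366 and 0.257 CPM and at 0.534, 1.17 and 0.302 CPM, and these groups overlapped. Its log2 fold change of 1.26 with SE 0.48 (adjusted p = 0.103) passed without gRc + H2O2 replicate 3 (adjusted p = 0.0459, edgeR). Ifit2 stood at 14, 11.5 and 13.1 CPM and at 8.14, 8.46 and 7.13 CPM, lower in every gRc + H2O2 library. It fell by 0.70 (SE 0.20, adjusted p = 0.0374, edgeR) and missed the threshold in 6 of the 12 fits that left out 1 library, namely gRc replicates 1 or 3, H2O2 replicate 3 or any gRc + H2O2 replicate, with adjusted p up to 0.134.

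Oasl2 stood at 2.34, 2.84 and 2.76 CPM with gRc and at 6.20, 7.07 and 5.05 CPM with gRc + H2O2, with a log2 fold change of 1.21 with SE 0.22 (adjusted p = 0.00425). Mx2 was steady in the gRc libraries at 0.468, 0.487 and 0.482 CPM and stood at 2.63, 2.84 and 3.81 CPM with gRc + H2O2, and edgeR gave a log2 fold change of 2.68 with SE 0.42 (adjusted p = 0.00208). Igtp stood at 2.81, 2.44 and 3.18 CPM and at 4.97, 7.35 and 6.45 CPM, which is a log2 change of 1.15 with SE 0.21 (adjusted p = 0.00404). All 3 genes kept their groups apart and passed in each of the 12 fits that left out 1 library. Gbp3 stood at 0.755, 0.690 and 0.450 CPM and at 1.27, 1.96 and 1.02 CPM, highest in gRc + H2O2 replicate 2, and its log2 fold change of 1.17 with SE 0.32 (adjusted p = 0.0301) was lost without any 1 gRc replicate, gRc + H2O2 replicates 1 or 2 or H2O2 replicate 3, with adjusted p up to 0.144. Gbp2, Parp9 and Zbp1, which lay below 0 against vehicle, lay below 0 here too, with log2 fold changes of -0.44, -0.31 and -0.54 that did not pass. Irf1 stood at 34.7, 34.6 and 26.6 CPM and at 25.1, 22.6 and 25.6 CPM, and its log2 fold change was -0.39 with SE 0.21 (adjusted p = 0.253). The summed level of the members was 251 to 258 CPM in the gRc libraries and 277 to 321 CPM in the gRc + H2O2 libraries, a ratio of 1.17 (1.12 in TPM).

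**Figure D3:**
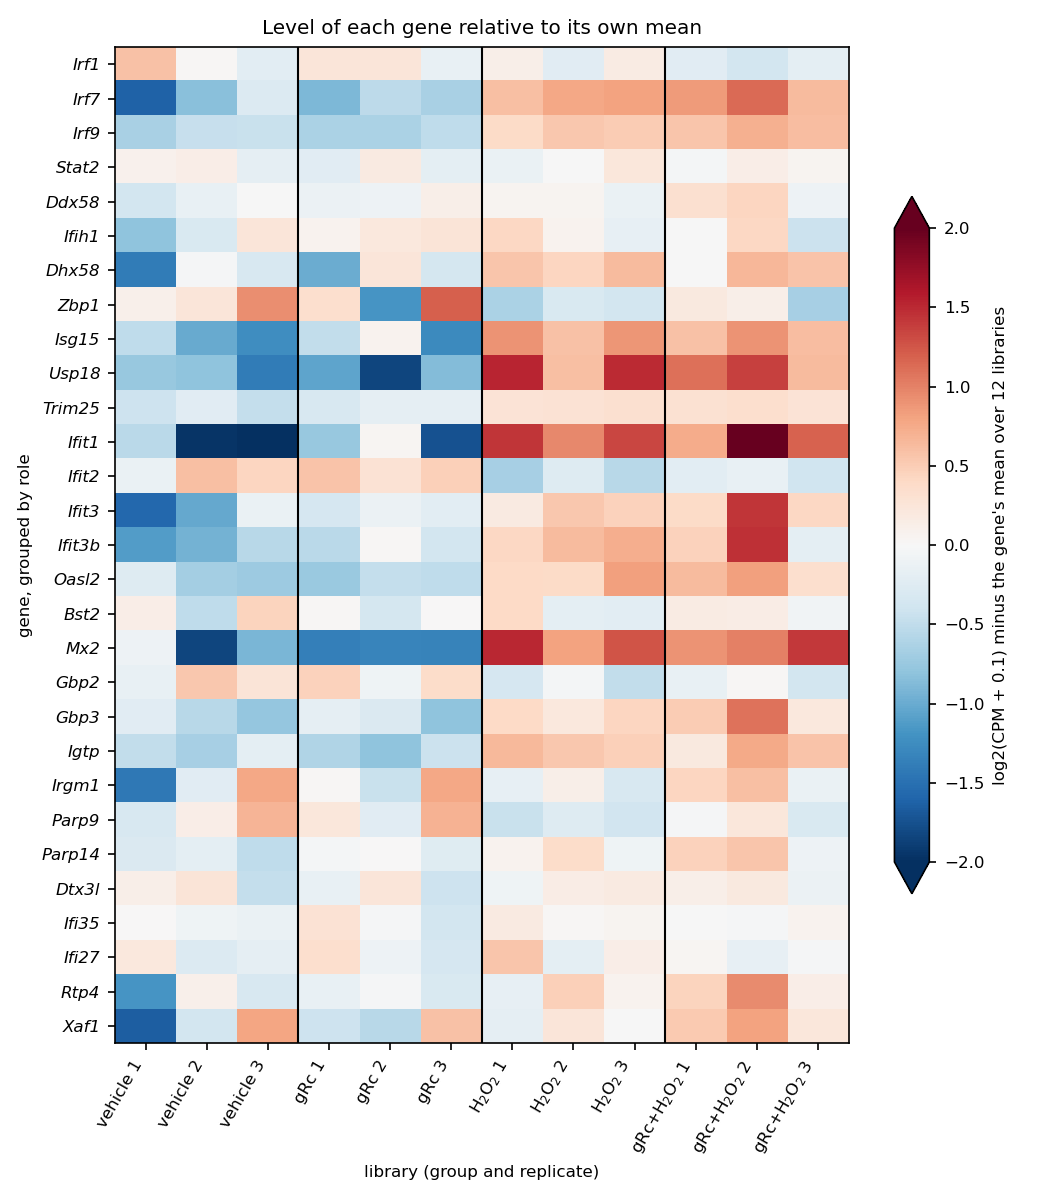
Level of the 29 measured members (rows, grouped by role) in the 12 libraries (columns), as log2(CPM + 0.1) minus the gene's own mean over the libraries, with the colour scale ending at -2 and 2. The 6 libraries with H2O2 are red for Irf7, Irf9, Isg15, Usp18, Ifit1, Mx2 and Oasl2, and Irgm1, Xaf1 and Zbp1 vary as widely within the vehicle and gRc groups as between groups.

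gRc + H2O2 against H2O2 asked whether gRc before the oxidant changes the level of these genes. No member passed, and 0% of the 14838 genes tested did. The 29 log2 fold changes ran from -0.30 (Irf1) to 0.51 (Xaf1), and all 29 of the 95% intervals held 0. For 19 members the whole interval lay within 1 on the log2 scale either way, so a 2-fold change lay outside the interval for those and inside it for the other 10. No member had an unadjusted p under 0.05 in edgeR, beside 122 of all genes (0.822%), and DESeq2 called 2 of all genes and 0 members. Irf9 was the member whose groups did not overlap, higher with gRc + H2O2 at 22.0, 24.6 and 23 CPM than with H2O2 at 19.4, 21.8 and 21.3 CPM, beside 7.69% of all genes. Its log2 fold change was 0.15, with an interval of -0.12 to 0.43.

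The width of the intervals differed between members. For Trim25 the interval was -0.25 to 0.27, for Stat2 -0.33 to 0.36 and for Ifi35 -0.42 to 0.29. For Isg15 it was -0.80 to 0.61 and for Mx2 -0.92 to 0.73. Ifit1 had the widest of the 29, -1.11 to 1.55, and Usp18 had -1.27 to 0.84. Irgm1 and Xaf1, which varied between the libraries of a group, had -0.59 to 1.48 and -0.59 to 1.60. A p that misses the threshold does not show that the levels with and without gRc were the same.

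gRc against vehicle, without the oxidant, also gave no call among the members, and 0% of all genes tested. The log2 fold changes ran from -0.61 (Mx2) to 1.10 (Ifit1), and all 29 intervals held 0, with 18 of them inside 1 on the log2 scale either way. No member had an unadjusted p under 0.05, beside 74 of all genes (0.499%). Ifit1 stood at 0.721, 0.207 and 0.0713 CPM with vehicle and at 0.611, 1.14 and 0.257 CPM with gRc, and the groups overlapped. Its interval of -0.53 to 2.72 holds both no change and a rise larger than 2 on the log2 scale. Ifit3b was the member whose groups did not overlap, higher with gRc (0.869% of all genes), from 2.3, 4.38 and 6.35 expected counts with vehicle to 6.43, 9.42 and 7.59 with gRc.

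The difference between the effect of H2O2 with gRc and without it was tested directly. No member passed, and 0% of all genes did. The differences ran from -0.88 (Ifit1) to 0.51 (Mx2), with intervals of -2.97 to 1.21 and -0.75 to 1.77, and 12 of the 29 intervals lay within 1 on the log2 scale. No member had an unadjusted p under 0.05, beside 87 of all genes (0.586%). That Ifit3b passed in vehicle-treated cells alone and Gbp3 in gRc-treated cells alone is therefore not a measured difference between these responses. The intervals of their differences were -2.17 to 0.93 and -0.81 to 1.2.

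**Figure D4:**
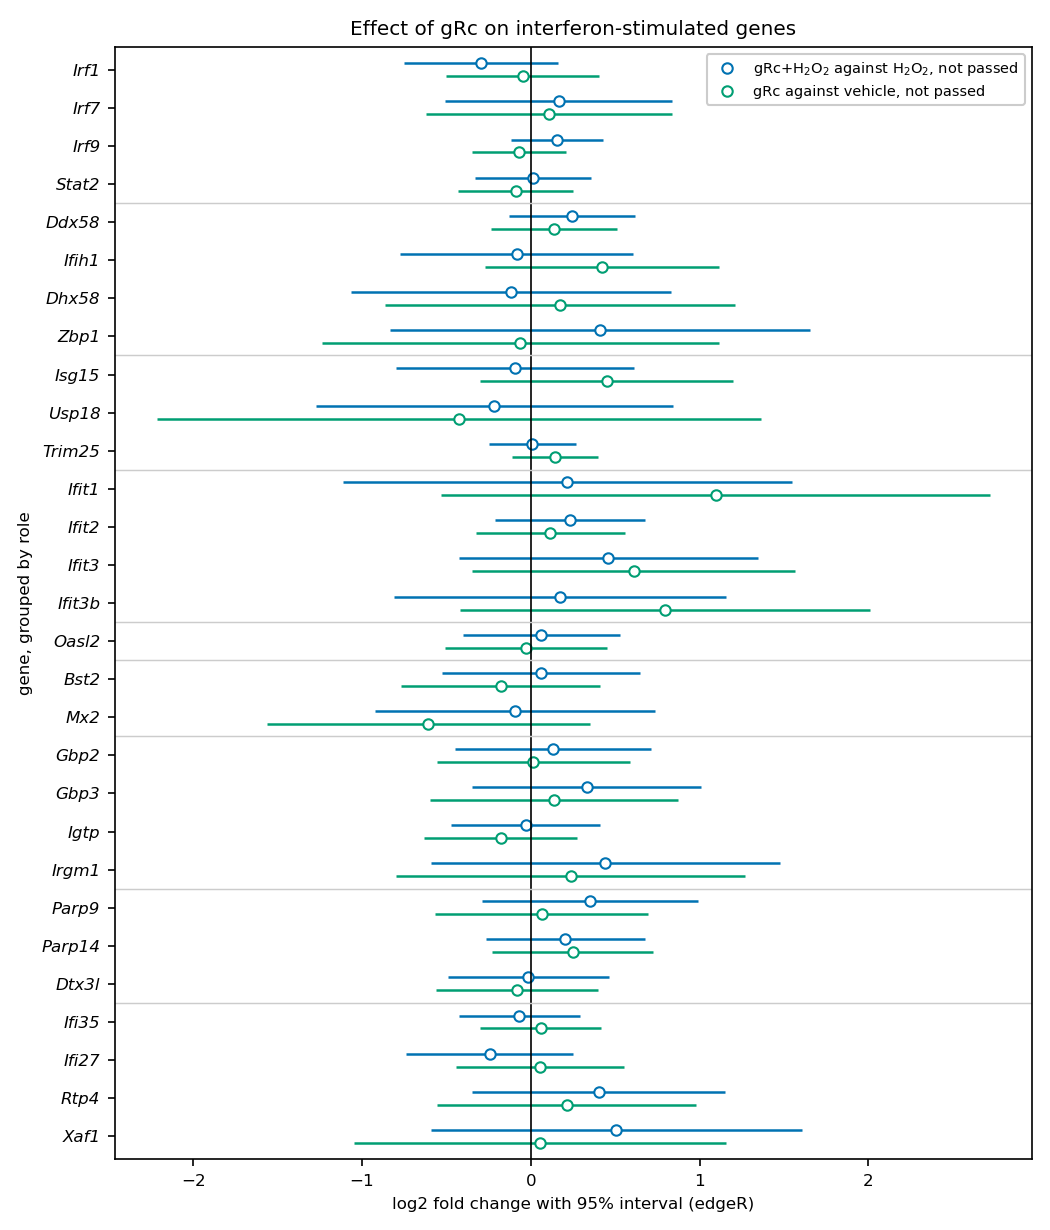
Log2 fold change with its 95% interval (horizontal axis, edgeR) of the 29 measured members for gRc + H2O2 against H2O2 (blue) and gRc against vehicle (green). No point has an adjusted p under 0.05, all intervals hold 0, and those of Usp18, Ifit1 and Zbp1 are among the widest.

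The 6 members under the filter on low counts were tested only in a fit of 25926 genes with no filter. Oas1a, an RNA-activated synthetase, had 0 counts in all 6 libraries without H2O2. It had 2, 2 and 1 counts with H2O2 and 4, 6.5 and 3 with gRc + H2O2. Oasl1 had 4, 0 and 2 counts with vehicle and 1, 5 and 3 with gRc, and 7, 11 and 5 with H2O2 and 11, 15 and 9 with gRc + H2O2. Ifi44 had 2, 3 and 0 counts with vehicle and 0 in each gRc library, and 8, 9 and 7 with H2O2 and 8, 30 and 7 with gRc + H2O2. Each of these 3 had its highest count in a library with H2O2. Rsad2, which encodes viperin, had 0 to 6 counts per library. Its neighbour Cmpk2 had 0 to 4 and Mx1 had 2 to 12 counts with gRc + H2O2 and 0 to 3 in the other groups. In the fit with no filter none of the 6 passed against vehicle, where Oas1a, Ifi44 and Oasl1 had adjusted p of 0.148, 0.184 and 0.248 from edgeR. In gRc + H2O2 against gRc, Ifi44 and Oas1a passed with adjusted p of 0.00638 and 0.0383 (edgeR), both against gRc libraries at 0 counts, and the other 4 did not.

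The genes upstream of the members were described from lists of the pathway. The 21 interferon genes listed, among them Ifnb1, the alpha interferons and Ifng, had no measured member, and together they held 0 to 7 counts in any library. Of 5 measured interferon receptor genes, none passed in either comparison of H2O2. The receptor gene Ifnar1 stood at 42.3, 49.3 and 56.4 CPM with vehicle and at 55.4, 57.2 and 54.7 CPM with H2O2, and Ifnar2 at 16.6, 16.1 and 29.7 and 22.5, 24.2 and 21.0 CPM. Of the 5 JAK-STAT genes, none passed in H2O2 against vehicle, where their log2 fold changes ran from -0.60 to 0.37. There 4 of them had an unadjusted p under 0.05 in edgeR, beside 4422 of the 14838 genes tested. In gRc + H2O2 against gRc the kinase gene Tyk2 fell by 0.74 (SE 0.20, adjusted p = 0.0263, edgeR), and against vehicle it had -0.60 with SE 0.20 (adjusted p = 0.0613). Its fall in gRc-treated cells is 20% of the 5 genes, beside 8.15% of all genes.

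Of 22 measured sensors and adaptors outside the set, 4 rose (18.2%) and 3 fell (13.6%) in H2O2 against vehicle, with a median of 0.03, beside 7.81% and 7.84% of all genes. Cgas, the sensor of DNA in the cytoplasm, stood at 4.66, 5.5 and 4.96 CPM with vehicle and at 9.69, 11.3 and 10.1 CPM with H2O2, with a log2 fold change of 1.04 with SE 0.17 (adjusted p = 0.00258). Tmem173, which encodes STING, the adaptor that CGAS activates, went the other way, from 19, 18.4 and 21.8 CPM to 10.3, 11 and 10.9 CPM, and edgeR gave a log2 fold change of -0.88 with SE 0.13 (adjusted p = 0.00137). Both genes separated the groups, and in gRc-treated cells both passed again, with 1.3 and -0.87. Adar, which edits double-stranded RNA, rose by 0.99 and 0.99 in the 2 comparisons, the RNA receptor gene Tlr3 fell by 1.90 against vehicle, and the kinase gene Ikbke fell by 0.84 and 0.92. Traf6 rose in both (0.45 and 0.50) and Trim32 against vehicle (0.53). In gRc-treated cells 3 rose (13.6%) and 4 fell (18.2%), beside 7.57% and 8.15% of all genes, the other 2 that fell being Nlrx1 and Samhd1.

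Of 39 measured further interferon-stimulated genes, out of 61 listed, 5 rose (12.8%) and 2 fell (5.13%) in H2O2 against vehicle, with a median of -0.06, beside 7.81% and 7.84% of all genes. In gRc + H2O2 against gRc 6 rose (15.4%) and 5 fell (12.8%), with a median of 0.15, beside 7.57% and 8.15%. Those that rose against vehicle are Irgm2, Adar, the helicase gene Helz2, Tor3a and Znfx1, and those that fell are Mov10 and Pml. In gRc-treated cells Lgals3bp rose as well, and Mov10, Herc6, Samhd1, Gbp9 and Uba7 fell. Adar and Samhd1 are also counted among the sensors and adaptors above, so the counts of these lists are not independent. Uba7, the enzyme that activates ISG15 for conjugation, had a log2 fold change of -1.30 with SE 0.36 (adjusted p = 0.0332), while Isg15 rose in the same libraries. Of 16 measured genes of antigen presentation, Tap1, which carries peptides to class I molecules, rose in both comparisons. This is 6.25% of the list in each, beside 7.81% and 7.57% of all genes. Tap1 stood at 2.05, 1.28 and 0.678 CPM with vehicle and at 3.96, 4.55 and 5.54 CPM with H2O2, which is a log2 change of 1.83 with SE 0.33 (adjusted p = 0.00437), and the other 15 did not pass.

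Of 14 genes that restrain the response, 2 rose (14.3%) and 1 fell (7.14%) in H2O2 against vehicle, beside 7.81% and 7.84% of all genes. The median of the list was 0.03. Ptpn2, a phosphatase that acts on JAK1, rose from 24.2, 37.9 and 29.0 to 51.8, 51.6 and 49.4 CPM, with a log2 fold change of 0.75 with SE 0.18 (adjusted p = 0.0177, edgeR). Irf2bp2 rose by 0.67 and Ptpn1 fell by 0.47. In gRc-treated cells Ptpn2 and Irf2bp2 rose again, by 0.64 and 0.82. There 14.3% of the list rose and 0% fell, beside 7.57% and 8.15% of all genes. Socs1 and Socs3, the feedback inhibitors of JAK kinases, did not pass, with log2 fold changes of -0.03 with SE 0.32 (adjusted p = 0.970) and -0.13 with SE 0.20 (adjusted p = 0.723) against vehicle.

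**Figure D5:**
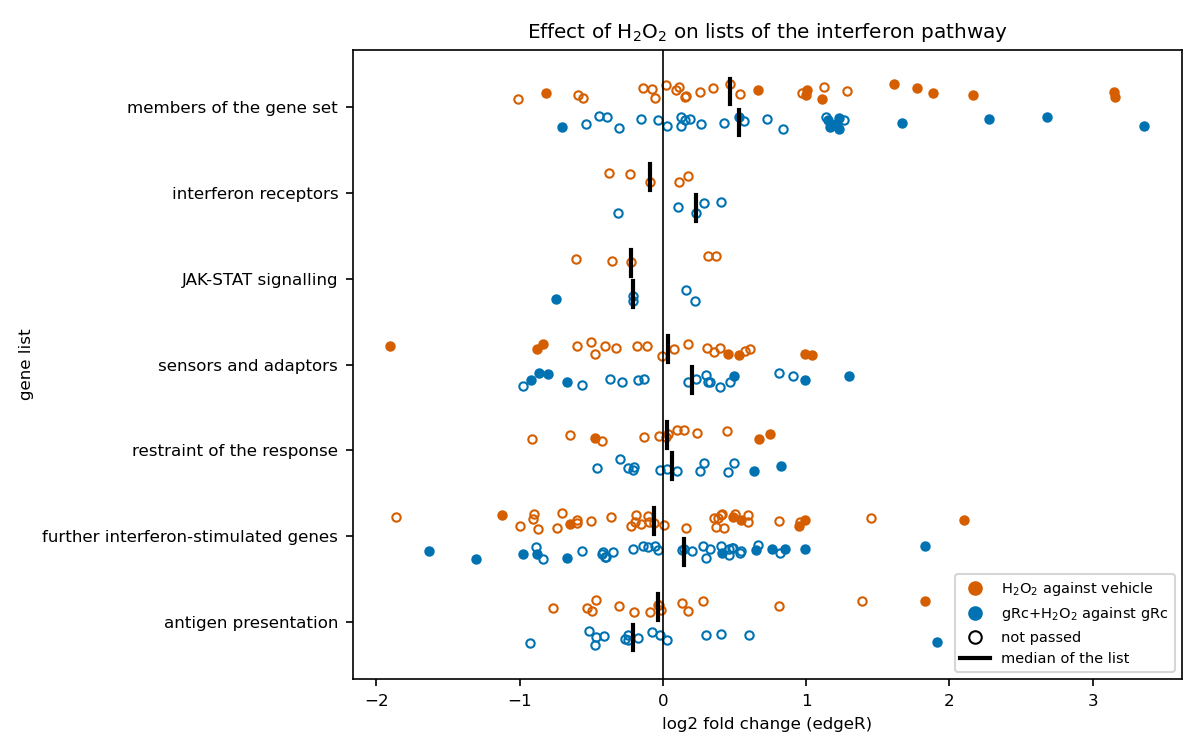
Log2 fold changes (horizontal axis, edgeR) of the measured members and of 6 lists of the interferon pathway, each point a gene, for H2O2 against vehicle (orange) and gRc + H2O2 against gRc (blue). Filled points have an adjusted p under 0.05 and black bars are list medians. The medians of the members, 0.47 and 0.53, lie to the right of those of the 6 lists, which run from -0.22 to 0.23.

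White blood cells express many of these genes at high levels, so their markers were examined. Of 8 markers 4 were measured and none passed, and most of their summed level was Cd14. The sum was 6.71 to 7.10 CPM with vehicle and 6.57 to 7.53 CPM with H2O2, and it was 5.22 to 6.94 CPM with gRc and 7.17 to 8.90 CPM with gRc + H2O2, where the groups did not overlap. All 4 lay above 0 in gRc + H2O2 against gRc, with a median log2 fold change of 0.56, and 3 of 4 in H2O2 against vehicle, with a median of 0.15. Their part in the members' values was not tested. The defining markers Ptprc, Adgre1 and Tyrobp had 0 to 2 counts per library. The 3 endothelial markers were all too low to measure, with a sum of 0.122 to 0.792 CPM. Of the 5 muscle genes none passed in either comparison of H2O2. All 5 lay below 0 in H2O2 against vehicle, with a median of -0.39, and 4 of 5 did in gRc + H2O2 against gRc, with a median of -0.22 and the lowest value, -0.88, for Myh3. Their part was not tested either.

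Among members with a promoter entry, those with and without an ISRE match both held genes that rose and genes that did not. In H2O2 against vehicle, 4 of 12 measured members with a match rose, with a median log2 fold change of 0.66, and 4 of 9 without one rose and 1 fell, with a median of 0.15. In gRc + H2O2 against gRc it was 4 of 12 with a median of 0.70, and 4 of 9 and 1 fall with a median of 0.53. Of all genes tested, 7.81% rose and 7.84% fell in the first comparison, and 7.57% and 8.15% in the second. The 12 members with a match include Ifit3b, which passed the filter on low counts through the H2O2 libraries alone. Its log2 fold changes, 1.89 and 1.26, enter both medians of that group. Irf9, Irf7, Oasl2 and Trim25 rose without a match in the window, and Stat2, Bst2, Ddx58, Ifih1, Gbp2 and Irgm1 have one and did not pass in either comparison.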

How the data were processed

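Poly(A) RNA was read from both ends (100 bases) in 12 libraries of C2C12 cells, 3 for each of 4 groups. According to the study's methods and processing notes, the authors trimmed the reads with Trim Galore, aligned them with STAR (2.7.3a) to GRCm38 (mm10) and quantified genes with RSEM (1.3.3). The deposited expected counts per gene hold the fragments RSEM gave to each gene, not normalized, with shared fragments divided among genes. The deposited TPM values, which the authors took from RSEM, are scaled by gene length within a library. Whether the counting used strand is not given in the sources used here, although the kit is directional, so overlapping genes on opposite strands are uncertain.

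The expected counts, rounded to integers, were fitted with edgeR 4.0.16 in R 4.3.3. The fit took all 12 libraries with TMM factors, filterByExpr kept 14838 of 48795 genes, and groups were compared with the quasi-likelihood F test, Benjamini-Hochberg adjusted over all genes tested. An adjusted p under 0.05 counts as passing. SE was derived from F and the log2 fold change, whose ratio to the SE has F as its square, and 95% intervals use the same SE with the degrees of freedom of the test. Symbols and positions come from the GRCm38 annotation and promoters from RefSeq. Totals of 19274762 to 31409066 counts set the precision, and counting error is within the spread between libraries.

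The members, gene lists, tests and alternatives were chosen with earlier results of these data known. Of the pathway lists, the text names genes that passed in either comparison of H2O2, at most the 6 with the smallest p per list and comparison, beside Hmox1, Atf3 and the list counts. Ifnar1, Ifnar2, Socs1, Socs3, Samhd1, Herc6, Gbp9 and Uba7 were named in addition after their values were seen, and Rnf31, Phrf1 and Dhx58os as overlapping genes. Alternatives were DESeq2 (1.42.0), limma (3.58.1) on log2(TPM + 0.5), RLE size factors, no filter, at least 10 counts in every library, a fit of the compared groups alone, a block for the replicate number, a GC correction by a spline with 5 degrees of freedom with and without that block, leaving out each library, and leaving out the 3 libraries that stood apart together. The labels do not say that replicate numbers pair libraries. Like-numbered gRc and vehicle libraries had deviations from the group means that correlated across genes at 0.460, 0.271 and 0.860. In the other comparisons at least 1 of the 3 correlations was under the threshold of 0.1. Libraries of unlike number were not compared, so these values do not establish a pairing. FPKM values were not used because they restate the counts.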

Additional observations from a re-analysis of the deposited data

How the results depend on the processing

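In H2O2 against vehicle, where 10 members rose and 1 fell, 5 rose with at least 10 counts in every library, a filter that left 21 members and 12605 genes. With only the groups compared, 4 rose and 0 fell, and 739 genes were called in all beside 2323. Leaving out 1 library gave 8 to 10 that rose and 0 to 1 that fell. In gRc + H2O2 against gRc, where 10 rose and 1 fell, 6 rose with at least 10 counts in every library. With no filter 10 rose, 8 of the 29 and 2 of the 6 scarce members (Ifi44 and Oas1a). None fell (0) with no filter and with limma on TPM, and 2 fell with vehicle replicates 1 and 3 and gRc replicate 3 left out together. Leaving out 1 library gave 6 to 11 that rose and 0 to 1 that fell. The count of all genes called in H2O2 against vehicle was 1492 with limma on TPM and 1450, 1391 and 1290 without H2O2 replicates 1, 2 and 3. In gRc + H2O2 against gRc, 2332 became 1459 with limma on TPM, 5120 with the 3 libraries left out, 1409 without gRc replicate 1 and 1272, 1205 and 1280 without gRc + H2O2 replicates 1, 2 and 3. The fit without the 3 libraries leaves vehicle with 1 library, which is assumed to vary like the other groups. The cause of these changes beyond fewer genes or samples was not tested. With at least 10 counts in every library the median log2 fold change of the members was 0.16 against vehicle and 0.18 in gRc-treated cells, and with limma on TPM it was 0.25 in the latter.

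Isg15 and Irf9 against vehicle, and Irf7, Irf9, Oasl2, Usp18, Igtp and Mx2 in gRc-treated cells, passed under each alternative that tested them. Against vehicle, Irf7, Oasl2, Igtp, Mx2, Trim25, Ifit1 and Ifit2 missed the threshold with only the groups compared, Trim25 and Ifit3b with limma on TPM, Ifit3b with no filter, and Usp18 and Ifit3b with the 3 libraries left out. In gRc-treated cells Ifit1 missed it under both GC corrections, Isg15 and Gbp3 with only the groups compared, and Ifit2, Trim25 and Gbp3 with no filter and with limma on TPM. Calls gained were Ifit3 against vehicle (DESeq2, both GC corrections) and, in gRc-treated cells, Ifit3 (DESeq2) and, with the 3 libraries left out, Ifit3, Irf1 (-0.51, a fall) and Xaf1 (1.02, adjusted p = 0.00555, edgeR). With limma on TPM, whose pseudocount shrinks scarce genes, Usp18 had 1.04 and 0.99, Ifit1 1.61 and 1.37, Mx2 1.17 and 1.38 and Ifit3b against vehicle 0.59. Mx2 against vehicle had 3.38 with the 3 libraries left out. No called member changed direction under any alternative. In both comparisons of gRc and in the difference of the H2O2 effects, 0 members passed under every alternative, and DESeq2 called 2 and 1 of all genes in gRc + H2O2 against H2O2 and in the difference.

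With the replicate number as a block, 10 members rose and 1 fell in H2O2 against vehicle and likewise in gRc + H2O2 against gRc, and with the block and the GC correction together 11 and 9 rose. Under the block Tyk2, which is no member, passed against vehicle (-0.59, adjusted p = 0.0350, edgeR). The block changed no other call among the genes named, and it gave 0 calls in gRc against vehicle. In that comparison all 3 correlations of like-numbered libraries were above 0.1, which does not establish a pairing. The ISRE search over only the bases before the start site moved the members with a match from 14 to 12. Depth limits the scarce members most, since Usp18 and Ifit1 rest on 6 and 21 counts over the 3 vehicle libraries.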
